A study of Mus musculus with 12 samples.

Results

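Spinal cords of EphA4 knockout mice were compared 4 days after a cut through the left side of the lumbar cord (injured, a hemisection) with cords of EphA4 knockout mice that had the bone over the cord removed and nothing else (sham-operated, a laminectomy). The arrays were chosen by their labels, and they are 6 of the 12 arrays of the series: 3 injured EphA4 knockout mice and 3 sham-operated EphA4 knockout mice, 1 array per mouse. The other 6 arrays are wild-type littermates under the same operations, 3 injured and 3 sham-operated. Labels give the sham-operated wild-type mice as males (replicates 1 and 2) and a female (replicate 3), all of 10 weeks. The injured wild-type mice are given as males of 10 weeks (replicates 1 and 3) and a female of 14.5 weeks (replicate 2). All mice were adults of the C57/BL6 background. Labels give the sham-operated EphA4 knockout mice as a female of 12 weeks (replicate 1) and males of 9 and 10 weeks (replicates 2, 3). The injured ones are given as males of 10 weeks (replicates 1 and 2) and a female of 10 weeks (replicate 3). The deletion is constitutive, so that both groups lacked the receptor in every cell type throughout development. RNA came from 6 mm of cord around the cut, or from the matching place in sham-operated mice. The tissue is called the uninjured left side in the labels and the injured left side in the methods of the study, and the genes described below do not settle this wording.

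EphA4 is a receptor tyrosine kinase that binds ephrins on neighbouring cells and turns growing axons away, and mice without it are studied because axons regrow after spinal cord injury. In the days after a cut, microglia and blood-borne macrophages take up myelin and dead cells, astrocytes at the border enlarge and divide, fibroblasts and glia deposit a scar matrix, and the local neuronal circuits lose cells and synapses. The dorsal horn, the sensory part of the grey matter, holds interneurons that release neuropeptides for pain and itch, and the ventral horn holds the motor neurons. In a bulk tissue sample, fewer cells of a type and less RNA per cell cannot be told apart.

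Levels are log2 intensities, and the level of a gene is the mean over the exon probesets that name only that gene, for 15830 genes (median 9 probesets per gene). A change is the mean of the injured minus the mean of the sham-operated EphA4 knockout arrays on this log2 scale, with its standard error (SE) from limma, fitted on all 12 arrays. To pass, a gene needed an adjusted p (Benjamini-Hochberg) under 0.05 together with a fold of 1.2 or more in either direction, and n = 3 mice per group throughout. These p-values measure the spread between these mice. Array medians lay between 5.79 and 5.85. The interquartile range was 3.28 in injured replicate 2 and 3.49 to 3.63 in the other EphA4 knockout arrays. The RNA was extracted in 4 batches, of which batch 1 holds sham-operated replicate 2 and injured replicate 2, batch 2 holds sham-operated replicate 3 and injured replicate 1, and batches 3 and 4 hold 1 array each. Sham-operated replicate 2 is labelled male, but its Y-linked genes Eif2s3y (3.26) and Kdm5d (3.39) were low. The other EphA4 knockout males had 7.25 to 7.82 and 5.60 to 5.73. Sham-operated replicate 2 lay near the labelled females, with 3.28 and 3.57 in sham-operated replicate 1 and 3.40 and 3.465 in injured replicate 3. The balance of the sexes between the groups may thus differ from the labels. Of the reference genes of the study, Actb and B2m rose by 0.70 and 0.83, Hprt fell by 0.44, and Tbp did not pass. Gapdh was not measured, and Actb rests on 2 probesets. B2m did not pass with the median of its probesets as the gene level (0.40, limma adjusted p = 0.202). Hprt did not pass with extraction batch as a fixed term (limma adjusted p = 0.0534).

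The targeted gene checked the labels. Epha4 stood at 5.16, 5.19 and 5.15 in sham-operated replicates 1 to 3 of the knockout and at 6.66, 6.81 and 6.52 in the sham-operated wild-type cords. In the injured EphA4 knockout cords it was 4.82, 4.86 and 5.10, against 5.87, 6.25 and 6.11 in the injured wild-type cords. Every EphA4 knockout array lay below every wild-type array. Within the knockout the change of the remaining signal, −0.24 (SE 0.12), did not pass (limma adjusted p = 0.193).

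Injury altered 3242 of 15830 genes in the EphA4 knockout cord, 20.5% of those tested. More genes fell (1821, 11.5%) than rose (1421, 8.98%), but the large changes were nearly all increases: 480 genes rose at least 2-fold (3.03%) and 23 fell as far (0.145%). The median change over all genes was −0.05. Among the genes in the dimmest 25% 79 rose and 24 fell, and among those in the brightest 25% 341 rose and 829 fell, with a median of −0.15. In 5287 genes the 3 injured arrays did not overlap the 3 sham-operated ones, and 495 of the 503 genes that changed at least 2-fold were among them. Of the 3242 genes, 3231 moved the same way in both extraction batches that hold an array of each group. The arrays of these batches also entered the calls, so that this agreement was largely set in advance and is no independent evidence.

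**Figure D1:**
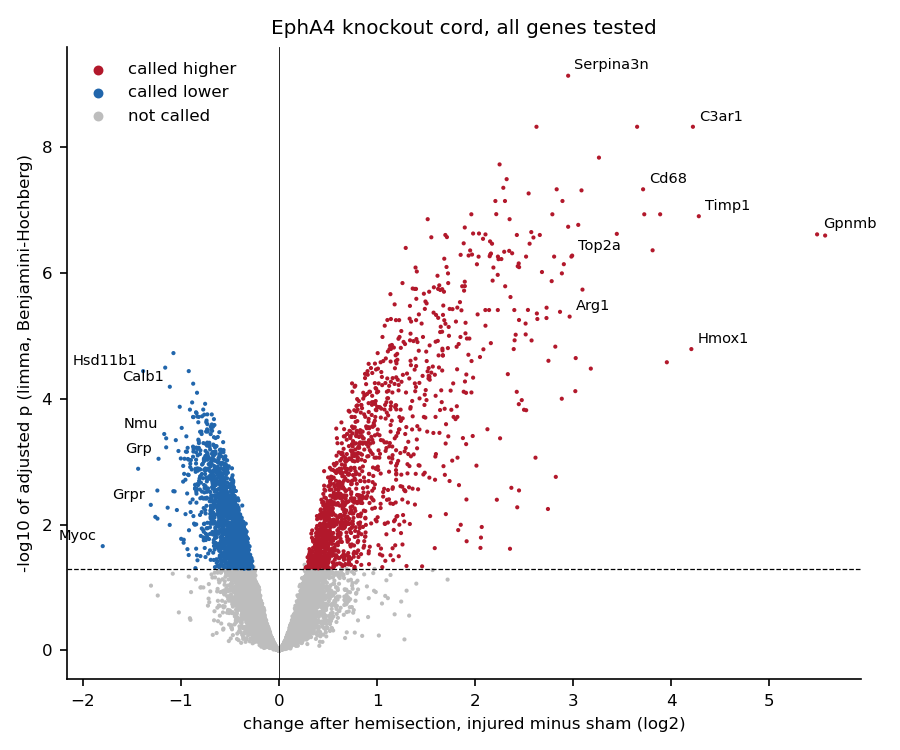
Change after injury in the EphA4 knockout cord (injured minus sham-operated, log2, x axis) against −log10 of limma's adjusted p (y axis), 1 point per gene, with an adjusted p of 0.05 as a dashed line and 14 genes named. The right arm is long (Gpnmb at 5.49) and the left arm short (Myoc at −1.80), although 1821 genes fell and 1421 rose.

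Genes of phagocytes were prominent among the largest increases. Gpnmb, a membrane glycoprotein of lipid-laden macrophages, stood at 4.46, 4.39 and 4.83 in the sham-operated cords and at 10.52, 10.46 and 9.15 in the injured cords. It rose 44.8-fold (change 5.49, SE 0.33, limma adjusted p = 2.44e-07), and injured replicate 3 was the lowest of the injured arrays while still far above every sham-operated one. Timp1, an inhibitor of matrix metalloproteinases, was 4.59, 3.94 and 4.94 in the sham-operated and 9.01, 8.37 and 8.93 in the injured cords. It rose 19.4-fold (4.28, SE 0.24), with a wide gap between the groups. C3ar1, the receptor for the complement fragment C3a, was 4.86, 4.91 and 4.59 in the sham-operated and 9.29, 8.94 and 8.79 in the injured cords, a rise of 18.6-fold (4.22, SE 0.16) with all injured arrays close together.

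Hmox1, the enzyme that breaks down haem, was 5.13, 4.84 and 4.96 in the sham-operated cords and 10.37, 9.17 and 8.01 in the injured cords. It rose 18.4-fold (4.20, SE 0.42), and its injured arrays were the most unequal of these leading genes, with replicate 1 high and replicate 3 low. Lyz2, the lysozyme of macrophages, was 6.94, 6.08 and 6.76 in the sham-operated and 10.68, 10.92 and 10.03 in the injured cords, a rise of 15.5-fold (3.95, SE 0.42). Ccl3, a chemokine that draws monocytes, was 4.67, 4.72 and 4.63 in the sham-operated and 8.69, 8.51 and 8.48 in the injured cords. It rose 14.8-fold (3.89, SE 0.21). Both groups were tight for Ccl3. The groups did not overlap for any of these genes, but that was a condition for the 10 largest increases and is no separate result. The 10 largest increases among genes with at least 3 probesets are completed by Lgals3, a galectin of macrophages (3.81), Ch25h, which makes 25-hydroxycholesterol (3.72, SE 0.21), Cd68, a lysosomal membrane protein (3.71, SE 0.18), and Ifi30, a lysosomal thiol reductase that prepares antigens (3.65, SE 0.14).

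**Figure D2:**
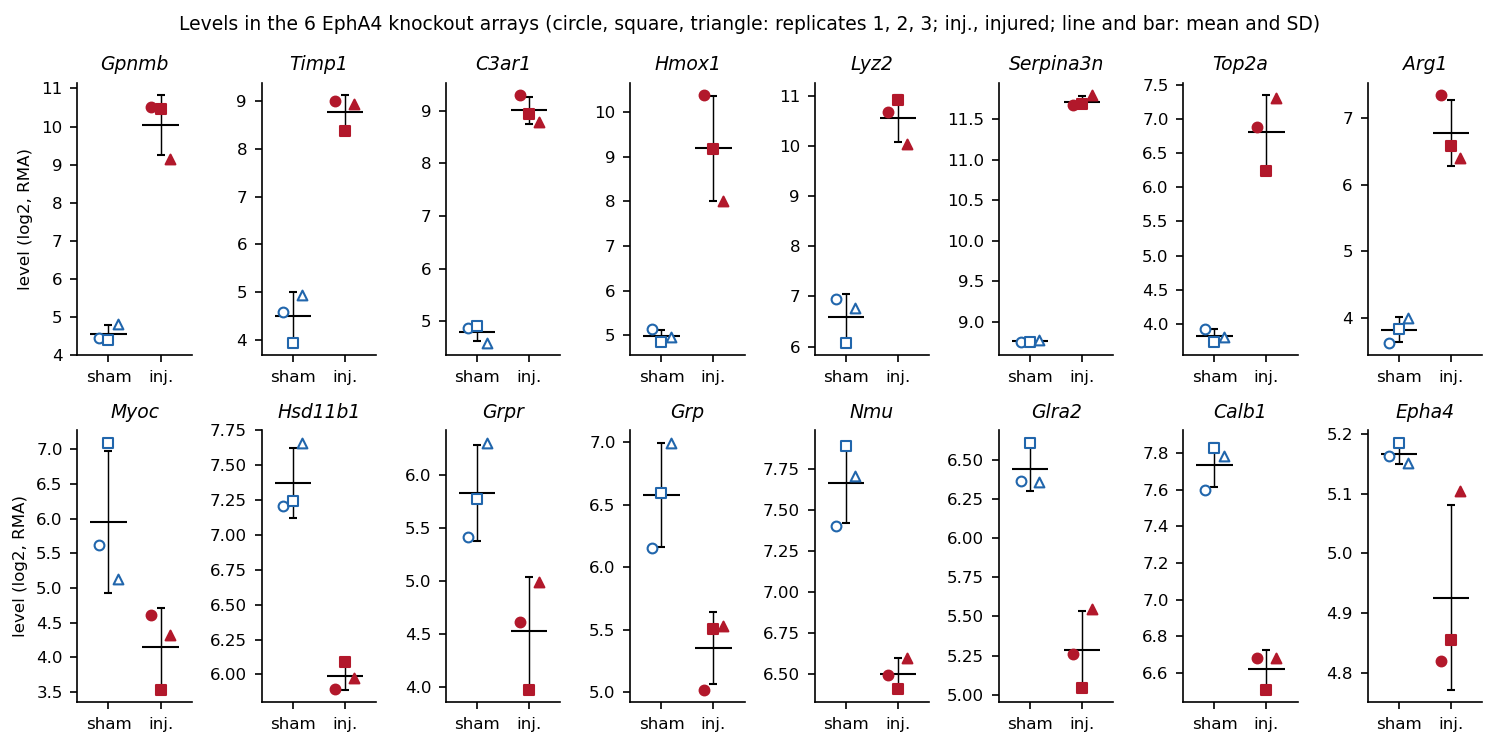
Level of 16 genes (log2 intensity, y axis, each panel with its own scale) in the 6 EphA4 knockout arrays, sham-operated as open and injured as filled symbols, with circles, squares and triangles for replicates 1, 2 and 3 and bars for the mean and SD. The groups are apart in the panels of Gpnmb (4.39 to 4.83 against 9.15 to 10.52) and Serpina3n (8.75 to 8.79 against 11.67 to 11.79), and in the panel of Epha4, whose change did not pass.

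Of 22 measured markers of macrophages and phagocytes, 21 rose and none fell, with a median change of 2.55 beside −0.05 over all genes. The mean level of the list was 5.53, 5.45 and 5.74 in the sham-operated and 8.26, 8.10 and 7.71 in the injured cords, so that the arrays were well apart and injured replicate 3 was the lowest of its group. Itgb2, the beta chain of the leukocyte integrins, rose by 2.62 (SE 0.10), Adgre1, the F4/80 antigen, by 2.95 (SE 0.17), and Spp1, osteopontin, by 2.81 (SE 0.19). Of 13 microglial genes 10 rose (median 1.06), among them the fractalkine receptor Cx3cr1 by 1.43 (SE 0.14), the growth factor receptor Csf1r by 1.39 (SE 0.10) and the lipid-sensing receptor Trem2 by 1.91 (SE 0.21).

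Arg1, the arginase that marks a macrophage subset, was 3.62, 3.83 and 4.00 in the sham-operated and 7.34, 6.59 and 6.41 in the injured EphA4 knockout cords. It rose 7.80-fold (2.96, SE 0.26, limma adjusted p = 4.95e-06), and its groups did not overlap. Of the 15 measured genes of alternative activation, 7 rose, none fell and 8 did not pass (median 0.44), with the interleukin-4 receptor chain Il4ra at 1.48 and its signal transducer Stat6 at 1.21 among the increases. The study names more genes for injured cords than the 11 taken here, which are Arg1 and the inflammation-related genes of a cluster in the study. These 11 were chosen on these same arrays and are therefore no independent evidence. Of these 10 rose in the knockout (median 0.86), and Ctla2a did not pass.

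The machinery of uptake and digestion rose with the phagocyte markers. All 6 measured subunits of the phagocyte NADPH oxidase, which makes superoxide, rose (median 1.71), with Cybb at 2.40, Cyba at 2.30, Rac2 at 1.87 and Ncf1 at 1.55. Of 22 lysosomal genes 17 rose (median 1.04), led by the proteases Ctsc (2.89) and Ctsz (2.32), the glucuronidase Gusb (2.21) and the protease Ctsd (1.52). Of 16 genes of phagocytosis 10 rose (median 0.91), including Stab1, a receptor for cell debris (2.83), and Pros1, a bridge to dying cells (1.64). Of 18 genes of lipid uptake and efflux 13 rose (median 0.93), with the lipid droplet coat protein Plin2 at 2.73, the scavenger receptor Msr1 at 2.52 and the cholesterol exporter Abca1 at 1.89. Of 17 genes of haem and iron handling 7 rose and 1 fell (median 0.34).

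Innate immune receptors followed the same course. Of 8 Fc receptor genes 7 rose (median 1.89), among them Fcrls by 3.05 and Fcgr4 by 2.16. Of 15 Toll-like receptor genes 11 rose (median 0.84), with the nucleic acid sensors Tlr13 and Tlr7 at 2.68 and 2.43 and the lipoprotein sensor Tlr2 at 1.92. Of 14 complement genes 9 rose (median 0.88), with the recognition subunits C1qa and C1qb at 2.35 and 2.04 and C4b at 2.15. Of 12 genes of inflammasomes and cell death 6 rose (median 0.63), among them the caspases Casp8 (2.15) and Casp4 (1.34).

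Secreted cytokines moved less evenly. Of 14 CC chemokine genes 7 rose (median 0.70), and of 14 CXC genes 3 rose and 1 fell (median −0.01). Of 19 interleukins and related cytokines 4 rose (median 0.21). Cxcl10, a chemokine induced by interferon, was 3.94, 3.67 and 4.08 in the sham-operated and 5.37, 6.73 and 7.15 in the injured cords. It rose by 2.52 (SE 0.33), without overlap and with injured replicate 1 well below the other injured arrays. Of 12 genes of interleukin-6 signalling 4 rose and 1 fell, with the oncostatin M receptor Osmr at 2.05 and the signal transducer Stat3 at 0.78 among the increases.

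Reactive astrocyte genes rose in nearly all cases. Serpina3n, a serine protease inhibitor secreted by reactive astrocytes, was 8.76, 8.75 and 8.79 in the sham-operated and 11.67, 11.68 and 11.79 in the injured cords. It rose 7.72-fold (2.95, SE 0.09), with the smallest adjusted p of all genes (limma adjusted p = 7.34e-10), and its arrays within a group were almost level. Vim, the intermediate filament vimentin, was 8.24, 8.13 and 8.25 in the sham-operated and 10.90, 10.48 and 10.87 in the injured cords, a rise of 2.54 (SE 0.13), and its groups were likewise far apart. Of 13 reactive astrocyte genes 12 rose (median 1.68), and the mean of the list lay between 6.20 and 6.33 in sham-operated and between 7.99 and 8.33 in injured arrays.

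Genes of resting astrocytes split. Of 13 measured, 3 rose, 3 fell and 7 did not pass (median −0.16). The water channel Aqp4 rose by 0.75 (SE 0.10), the gap junction protein Gja1 by 0.53, and the heparan sulphate proteoglycan Gpc5 fell by 0.73. With the median of the probesets as the gene level, Gja1 did not pass (limma adjusted p = 0.0627). Of 11 genes of oligodendrocyte precursors 4 rose (median 0.39): the receptor Gpr17 (1.2), versican, Vcan (1.16), the NG2 proteoglycan Cspg4 (0.83) and the transcription factor Sox6 (0.52). Of 15 genes of myelin and mature oligodendrocytes 1 rose and none fell (median −0.05).

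**Figure D3:**
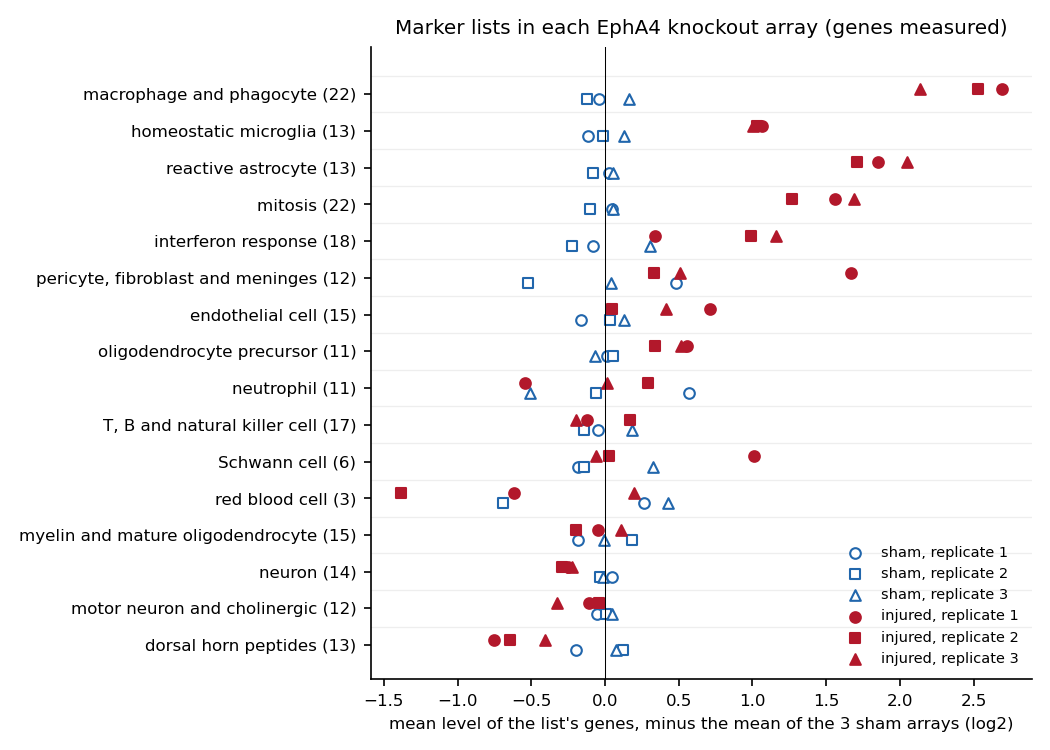
Mean level of 16 gene lists in each EphA4 knockout array, as the difference from the mean of the 3 sham-operated arrays (log2), with sham-operated arrays as open and injured arrays as filled symbols. Macrophage, reactive astrocyte and mitosis lists are fully apart, and in the list of pericytes and fibroblasts injured replicate 1 stands above the others (7.74 against 6.41 and 6.58 on the level scale) and the groups overlap.

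Mitosis genes rose without exception. All 22 measured genes of mitosis passed upwards, where 8.98% of all genes did, with a median of 1.35. Top2a, the topoisomerase that untangles replicated DNA, was 3.93, 3.74 and 3.80 in the sham-operated and 6.87, 6.23 and 7.30 in the injured cords, a rise of 7.90-fold (2.98, SE 0.20, limma adjusted p = 5.51e-07). Cdk1, the kinase that starts mitosis, was 3.79, 3.66 and 3.68 in the sham-operated and 5.87, 5.64 and 5.93 in the injured cords, a rise of 4.30-fold (SE 0.13 on the log2 scale). Injured replicate 2 was the lowest injured array for both genes and still stood far above every sham-operated array. Plk1, a kinase of the spindle poles, was 4.19, 4.30 and 4.23 in the sham-operated and 6.15, 5.71 and 5.98 in the injured cords, a rise of 3.27-fold (1.71, SE 0.12). Of 21 DNA replication genes 16 rose (median 0.64), with the helicase subunits Mcm6 (1.93, SE 0.20), Mcm2 (1.10) and Mcm5 (1.09) and the thymidine kinase Tk1 (1.33). Of 13 genes of the p53 pathway 7 rose (median 0.46). Which cells divided cannot be told apart in whole cord RNA.

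The promoters of Cdk1 and Plk1 are shown because all the mitosis genes moved together. They run from 250 bases before to 50 bases after the annotated start, on the strand of the gene, from RefSeq with build GRCm38.p6: Cdk1 at chr10:69352863-69353162 on the minus strand and Plk1 at chr7:122159185-122159484 on the plus strand. Capitals mark TTTGAA, the core of the cell cycle genes homology region, and CCAAT, the core bound by NF-Y, which reads ATTGG on the other strand.
Cdk1: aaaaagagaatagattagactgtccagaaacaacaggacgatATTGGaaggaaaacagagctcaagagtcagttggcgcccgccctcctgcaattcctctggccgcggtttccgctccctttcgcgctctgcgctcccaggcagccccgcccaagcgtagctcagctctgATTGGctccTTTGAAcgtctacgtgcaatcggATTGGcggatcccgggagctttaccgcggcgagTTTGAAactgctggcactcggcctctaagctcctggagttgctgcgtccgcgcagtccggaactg
Plk1: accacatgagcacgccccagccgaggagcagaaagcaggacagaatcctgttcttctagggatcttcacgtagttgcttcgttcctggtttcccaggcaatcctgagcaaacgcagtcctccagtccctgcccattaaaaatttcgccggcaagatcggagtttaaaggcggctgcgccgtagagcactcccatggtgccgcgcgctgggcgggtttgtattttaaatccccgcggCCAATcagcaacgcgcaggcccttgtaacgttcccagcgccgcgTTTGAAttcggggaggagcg
Counted from the start, TTTGAA begins at −71 and −15 and CCAAT at −208, −80 and −48 in Cdk1, and TTTGAA begins at 31 and CCAAT at −14 in Plk1. Both strands were searched, the motifs do not overlap here, and 18 of the 22 mitosis genes had a promoter entry. TTTGAA was in 13 of these 18 (72.2%) and in 18.1% of 27025 promoters of the same length, 1 per gene. The related TTCGAA was in 3 (16.7%, against 1.57% of all), and CCAAT in 16 (88.9%, against 37.9% of all). These are matches of letters and not sites.

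Interferon response genes rose as a group but not equally in the arrays. Of 18 measured, 11 rose and none fell (median 0.86). The mean of the list was 4.61, 4.47 and 5.0 in the sham-operated and 5.03, 5.68 and 5.86 in the injured cords, so that injured replicate 1 lay barely above sham-operated replicate 3. These arrays are the pair in extraction batch 2, and the median of the list was 0.05 within that batch and 1.14 within batch 1. Bst2, tetherin, which holds budding viruses at the membrane, was 5.12, 5.32 and 5.78 in the sham-operated and 7.23, 7.89 and 7.40 in the injured cords. It rose by 2.10 (SE 0.18, limma adjusted p = 3.89e-06) without overlap. Gbp2, a guanylate-binding GTPase, was 4.02, 4.14 and 4.50 in the sham-operated and 5.37, 6.0 and 6.40 in the injured cords, and rose by 1.70 (SE 0.23). The sensors of viral RNA Ddx58 and Ifih1 rose by 0.91 and 0.74.

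The promoters of Bst2 (chr8:71537423-71537722, minus strand) and Gbp2 (chr3:142620413-142620712, plus strand) are shown in the same way, with the core of the interferon-stimulated response element in capitals, which is GAAA, any pair of bases and GAAA again.
Bst2: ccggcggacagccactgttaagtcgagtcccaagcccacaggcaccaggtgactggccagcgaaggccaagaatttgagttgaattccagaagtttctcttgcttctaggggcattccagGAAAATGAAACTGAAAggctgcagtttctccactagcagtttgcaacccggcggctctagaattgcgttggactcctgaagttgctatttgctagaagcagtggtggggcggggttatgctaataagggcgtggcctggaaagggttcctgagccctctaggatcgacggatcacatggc
Gbp2: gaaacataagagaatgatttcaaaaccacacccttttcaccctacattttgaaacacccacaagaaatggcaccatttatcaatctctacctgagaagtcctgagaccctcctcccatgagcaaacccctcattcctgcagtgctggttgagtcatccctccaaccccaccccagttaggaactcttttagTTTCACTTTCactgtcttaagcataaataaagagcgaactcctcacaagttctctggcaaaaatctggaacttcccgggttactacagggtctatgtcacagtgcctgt
Bst2 holds overlapping copies that begin at −130 and −124, and Gbp2 holds 1 copy that begins at −59 and reads on the other strand. Of 14 interferon genes with a promoter entry 9 held the core (64.3%), against 3.49% of all promoters.

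Of 17 genes of antigen presentation 12 rose (median 0.84). H2-Ab1, the beta chain of the class II molecule, was 4.36, 4.35 and 4.67 in the sham-operated and 7.44, 7.31 and 6.12 in the injured cords. It rose by 2.50 (SE 0.32), and injured replicate 3 was again the lowest injured array. The peptide transporter Tap1 rose by 0.98 and the costimulatory receptor Cd86 by 1.49. None of 17 genes of T, B and natural killer cells passed (median −0.08). Of 11 neutrophil genes only Csf3r, the receptor for granulocyte colony-stimulating factor, rose (1.23), with a list median of −0.20. The mean of the neutrophil list was 6.04, 5.41 and 4.97 in the sham-operated and 4.93, 5.76 and 5.49 in the injured cords, so that the groups overlapped fully.

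Matrix genes rose in most groups. Of 18 glycoproteins of the scar 12 rose (median 1.29), with the extracellular matrix protein Ecm1 at 2.82 and thrombospondin Thbs2 at 1.89. Of 19 proteoglycans and link proteins 10 rose and 2 fell (median 0.51), the decreases being brevican, Bcan (−0.72), and the link protein Hapln1 (−0.70), both parts of the nets around neurons. Of 16 integrins 10 rose (median 0.75), of 16 S100 proteins and annexins 10 rose (median 0.55), and of 21 metalloproteinases and their inhibitors 8 rose and 2 fell (median 0.36). Tgfb1, the growth factor that drives scar formation, rose by 1.43, and 4 of 18 genes of its pathway rose (median 0.15).

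Fibroblast genes were less even. Dcn, decorin, was 6.96, 5.94 and 7.67 in the sham-operated and 10.48, 8.15 and 9.23 in the injured cords. It rose by 2.43 (SE 0.52), and injured replicate 1 was the highest. Lum, lumican, was 5.43, 3.60 and 4.31 in the sham-operated and 8.67, 5.68 and 6.05 in the injured cords, and rose by 2.36 (SE 0.67), although its call ended without injured replicate 1 (1.42, limma adjusted p = 0.0742), without sham-operated replicate 2 (1.93, adjusted p = 0.106) and without sham-operated replicate 3 (2.29, adjusted p = 0.0645). Of 20 collagens 7 rose (median 0.61), with Col12a1 at 1.53 and Col3a1 at 1.83, and the latter did not pass without sham-operated replicate 2 (1.43, adjusted p = 0.061). Of 12 genes of pericytes and fibroblasts 2 rose (median 0.81), and the mean of that list overlapped, at 6.56, 5.55 and 6.12 in the sham-operated and 7.74, 6.41 and 6.58 in the injured cords. Schwann cell genes also stood apart in injured replicate 1, at 6.47 beside 5.49 and 5.40 in the other injured and 5.28 to 5.79 in the sham-operated cords. The part of these cells in the matrix changes was not tested.

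Single genes linked to axon injury and cell stress rose, and the cells in which they rose were not identified. Atf3, a transcription factor switched on in damaged neurons, was 4.26, 4.34 and 4.08 in the sham-operated and 7.08, 7.06 and 7.50 in the injured cords, a rise of 2.99 (SE 0.20) with level injured arrays. Of 20 genes linked to regeneration 7 rose and 3 fell (median 0.07), with the tubulin Tubb6 at 2.63 and Jun at 0.77 among the increases. With extraction batch as a fixed term Jun did not pass (limma adjusted p = 0.0504). Of 18 neurotrophic and growth factor genes 5 rose and 4 fell (median 0.08), with Igf1 at 1.43 and Csf1 at 1.12 among those that rose and Vegfa, the vascular growth factor, at −0.64 among those that fell. Myc rose by 1.24. Of 15 immediate early genes 5 rose (median 0.18).

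Few decreases were large, since 23 genes fell at least 2-fold. Among the 10 largest in genes with at least 3 probesets, Hsd11b1, the enzyme that reactivates glucocorticoids, was 7.21, 7.24 and 7.66 in the sham-operated and 5.90, 6.09 and 5.97 in the injured cords, a fall of 2.61-fold (SE 0.15 on the log2 scale, limma adjusted p = 3.64e-05). Grpr, the receptor for gastrin-releasing peptide on itch neurons of the dorsal horn, was 5.41, 5.77 and 6.31 in the sham-operated and 4.61, 3.97 and 4.99 in the injured cords, a fall of 2.48-fold (SE 0.28, adjusted p = 0.00487). Glra2, a subunit of the glycine receptor, was 6.37, 6.61 and 6.36 in the sham-operated and 5.26, 5.04 and 5.55 in the injured cords, and fell by 1.16 (SE 0.13). None of these groups overlapped, but that was a condition for the 10 largest decreases and is no separate result.

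Tacr3, the receptor for neurokinin B, was 6.35, 6.61 and 6.31 in the sham-operated and 5.27, 4.89 and 5.65 in the injured cords, and fell by 1.15 (SE 0.18). Calb1, the calcium buffer calbindin of superficial dorsal horn neurons, was 7.60, 7.83 and 7.78 in the sham-operated and 6.68, 6.51 and 6.68 in the injured cords, and fell by 1.11 (SE 0.13). Syt10, a calcium sensor of vesicles, fell by 1.15 (SE 0.17), and Ighm, the heavy chain of immunoglobulin M, by 1.24 (SE 0.24). The largest decrease, of Myoc, a secreted glycoprotein, was also the least stable: it was 5.62, 7.10 and 5.12 in the sham-operated and 4.61, 3.53 and 4.32 in the injured cords. It fell by 1.80 (SE 0.50, adjusted p = 0.022), and its call ended without sham-operated replicate 2 (−1.22, adjusted p = 0.096), without injured replicate 2 (−1.49, adjusted p = 0.0853) and with extraction batch as a fixed term (−2.04, adjusted p = 0.0671).

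The neuropeptides of the dorsal horn fell together. Of 13 measured, 9 passed downwards, where 11.5% of all genes did, and the median was −0.65. Grp, gastrin-releasing peptide, was 6.16, 6.59 and 6.99 in the sham-operated and 5.02, 5.51 and 5.53 in the injured cords, a fall of 2.34-fold (SE 0.20). Nmu, neuromedin U, was 7.40, 7.89 and 7.71 in the sham-operated and 6.49, 6.40 and 6.60 in the injured cords, a fall of 2.25-fold (SE 0.17). Neither group overlapped with the other in these genes. The other peptides that fell were Trh, thyrotropin-releasing hormone (−0.97), Tac2, neurokinin B (−0.83), Nts, neurotensin (−0.81), Sst, somatostatin (−0.71), Pnoc, nociceptin (−0.65), Npy, neuropeptide Y (−0.61), and Tac1, substance P (−0.61). The opioid precursors Penk (−0.26) and Pdyn (−0.12), cholecystokinin, Cck (−0.37), and galanin, Gal (0.52), did not pass. The mean of the list was 7.15, 7.47 and 7.42 in the sham-operated and 6.60, 6.71 and 6.94 in the injured cords.

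Receptors and channels of neurons also fell, most of them by less. Of 17 genes of GABA and glycine transmission 13 fell (median −0.56), including the GABA receptor subunits Gabra5 (−0.88) and Gabra3 (−0.69) and the glycine receptor subunit Glrb (−0.56). Of 20 genes of glutamate receptors and synapses 17 fell (median −0.52), with the NMDA receptor subunit Grin2a at −0.83, the metabotropic receptor Grm3 at −0.73, the kainate receptor Grik1 at −0.72 and the kinase Camk2a at −0.65. Of 21 potassium channel genes 17 fell (median −0.57), among them Kcnd3 (−0.74), Kcnip4 (−0.71) and Kcnh1 (−0.60). Of 19 sodium and calcium channel genes 14 fell (median −0.50), with Cacna2d1 at −0.91, Cacnb4 at −0.84 and Cacna1e at −0.66. No member of these 4 lists rose.

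Of 17 genes of synaptic vesicles 12 fell (median −0.36), with the calcium sensor Syt1 at −0.76 and the release zone scaffold Rims1 at −0.66. General neuronal markers moved less: of 14 measured, 4 fell and 10 did not pass (median −0.26). Rtn1, a protein of the endoplasmic reticulum of neurons, fell by 0.49, but did not pass with the median of its probesets as the level (limma adjusted p = 0.0656). The other decreases also depended on single arrays, since Snap25 did not pass without sham-operated replicate 1 (adjusted p = 0.0702), Eno2 without sham-operated replicate 2 (adjusted p = 0.0683) and Elavl4 without sham-operated replicate 1 (adjusted p = 0.0512). Of 12 motor neuron genes 3 fell (median −0.20), with Ache, the acetylcholinesterase, at −0.50, which did not pass with extraction batch as a fixed term (adjusted p = 0.0887).

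**Figure D4:**
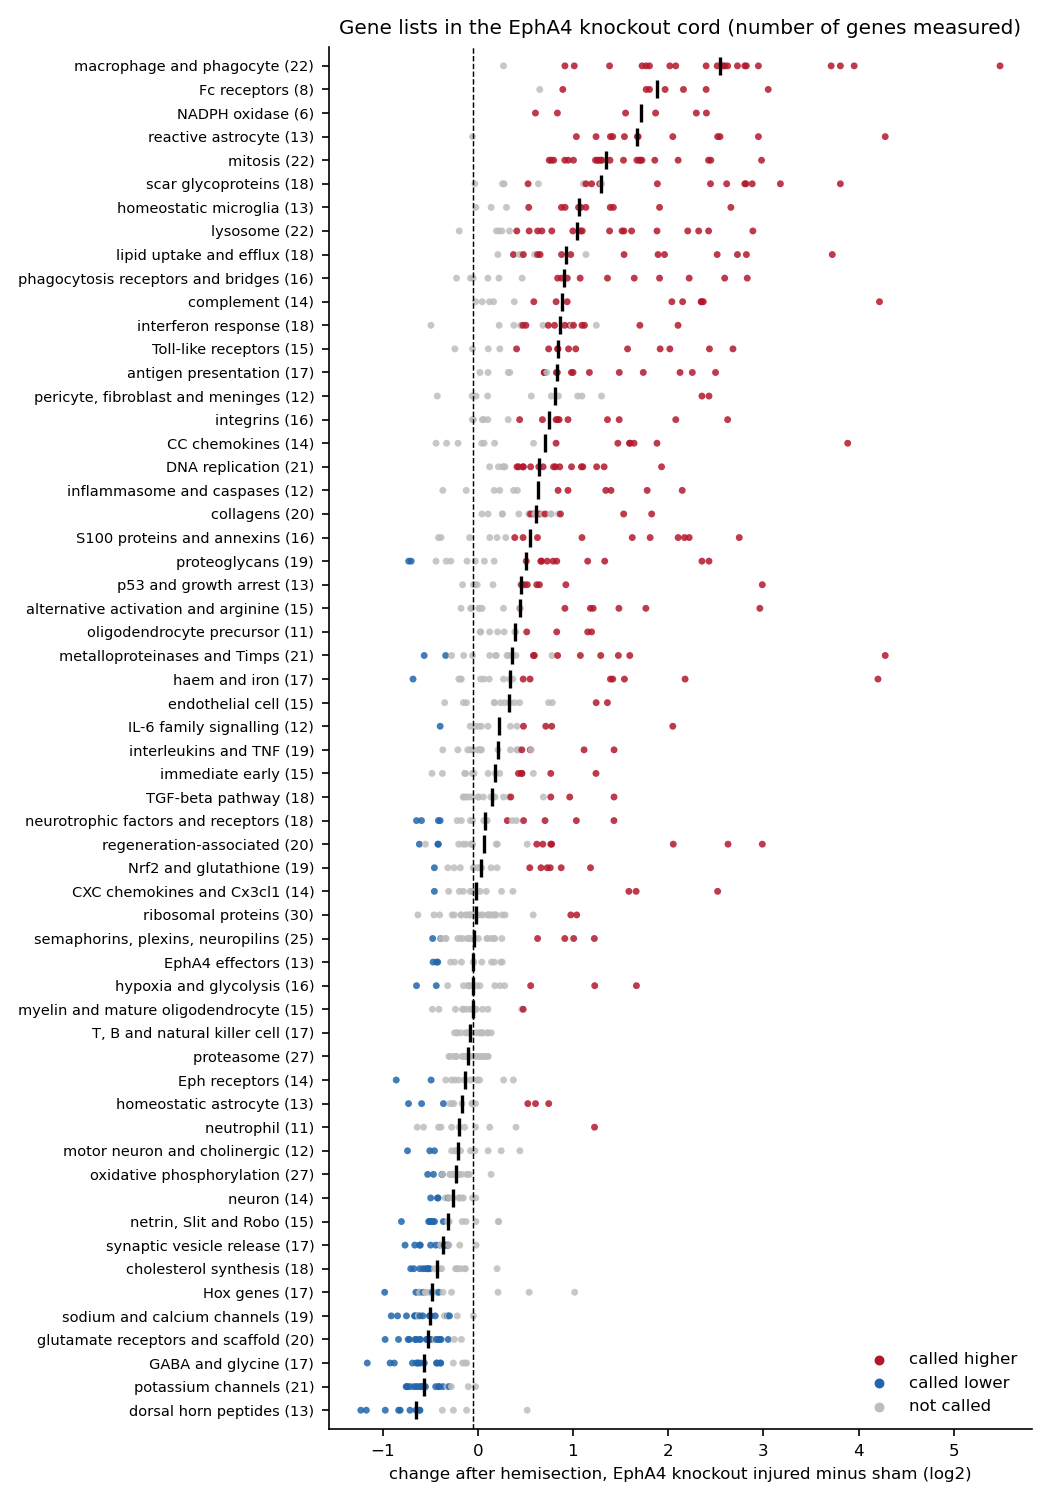
Change after injury in the EphA4 knockout cord (log2, x axis) of the members of gene lists (points), with the median of each list as a bar and the median of all genes (−0.05) as a dashed line. Lists of phagocytes, the NADPH oxidase and mitosis lie to the right, and lists of dorsal horn peptides, receptors and channels to the left with medians from −0.50 to −0.65.

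Metabolic lists are read beside the 8.98% of all genes that rose and the 11.5% that fell. Among them the cholesterol pathway had the lowest median. Of 16 genes of hypoxia and glycolysis 3 rose and 2 fell (median −0.05), with the lactate exporter Slc16a3 at 1.67 (SE 0.17) and the hexokinase Hk2 at 1.23 (SE 0.12) among the increases and Vegfa at −0.64 among the decreases. Of 18 genes of the cholesterol pathway 8 fell and none rose (median −0.43). Fdft1, squalene synthase, fell by 0.53, Tm7sf2, a sterol reductase, by 0.70, and Cyp51, a sterol demethylase, by 0.67. The last named did not pass without injured replicate 2 (limma adjusted p = 0.0989) and without sham-operated replicate 2 (adjusted p = 0.0959), nor did Tm7sf2 without the latter array (adjusted p = 0.0692). Of 27 genes of oxidative phosphorylation 4 fell (median −0.23). None of 27 proteasome genes passed, and of 30 ribosomal protein genes 2 rose. Of 19 genes of the Nrf2 response, which protects against oxidants, 6 rose and 1 fell (median 0.04). None of 10 muscle, 7 ependymal and 3 red blood cell genes passed.

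Axon guidance genes, to which the missing receptor belongs, are read beside the 8.98% of all genes that rose and the 11.5% that fell. Of 14 Eph receptor genes, Epha6 and Epha5 fell and 12 did not pass (median −0.13). Epha6 was 6.51, 6.31 and 6.19 in the sham-operated and 5.21, 5.35 and 5.88 in the injured cords, without overlap and with injured replicate 3 the nearest to the sham-operated arrays. It fell by 0.86 (SE 0.16, limma adjusted p = 0.00233). Epha5 fell by 0.49 (adjusted p = 0.0133), which did not hold without sham-operated replicate 1 (adjusted p = 0.0557) or without injured replicate 1 (adjusted p = 0.063). Of 7 ephrin genes, Efna5, a ligand of EphA receptors, fell by 0.46, and did not pass with the median of its probesets (adjusted p = 0.304) or with extraction batch as a fixed term (adjusted p = 0.0542). Of 13 genes that act below EphA4 in the cell 3 fell and 10 did not pass (median −0.05). They were the kinase Cdk5 (−0.42), which did not pass with the median of its probesets (adjusted p = 0.23), the GTPase regulator Sipa1l1 (−0.43), which did not pass without sham-operated replicate 1 (adjusted p = 0.0629), and the Rac regulator Chn1 (−0.47), which did not pass without sham-operated replicate 2 (adjusted p = 0.175).

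Among semaphorins and their receptors, 4 of 25 rose and 2 fell (median −0.04). The receptors Plxnb2 (1.23), Plxnd1 (1.01) and Nrp1 (0.91) rose, and the ligand Sema6b fell by 0.47. Of 15 genes of netrins, Slits and their receptors 7 fell and none rose (median −0.31), among them Ntng1 (−0.80), a netrin anchored to the membrane, and Slit1 (−0.51). Of 10 genes of myelin inhibitors and their receptors 1 fell. Of 17 Hox genes, which set the position along the cord, 6 fell and none rose (median −0.48), with Hoxb5 at −0.98 (SE 0.18) and Hoxa9 at −0.61. Hoxd10 did not pass (1.02, SE 1.05) and was very unequal within both groups. It was 5.185, 5.075 and 7.21 in the sham-operated and 7.64, 8.63 and 4.255 in the injured cords. The reason for this spread was not tested.

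The response of the EphA4 knockout cord was set beside that of the wild-type cord. The mean changes of the genotypes share no array, but both were tested in the same limma fit. Each gene thus had the same SE in both genotypes, and the calls of the genotypes are not independent of each other. In the wild-type 3809 genes passed (24.1%). Of these, 2516 passed in the same direction in the knockout, which is 77.6% of the calls in the knockout and 66.1% of those in the wild-type, 1 gene passed in opposite directions, and 725 passed in the knockout alone. Over all genes the changes of the genotypes correlated at a Pearson r of 0.872, a value across genes, which are not independent replicates. The difference between the responses was then fitted for each gene. No gene passed with limma at an adjusted p under 0.05 (0%, with 0.111 as the smallest). The unadjusted p was under 0.05 in 882 of 15830 genes. If no gene differed, a share near the p limit itself would still be under it by chance, here and at the limits that follow. The study used more lenient limits (1.2-fold and p under 0.01 before adjustment). With them, the response of the knockout lay above that of the wild-type in 81 genes (0.512%) and below it in 86 (0.543%). Of 830 olfactory receptor genes, a list of the lowest signals, 27 met these limits and 123 had an unadjusted p under 0.05. Their median change was 0.04 in the knockout and −0.20 in the wild-type. Their mean level was 3.67 in injured knockout replicate 2 and 3.21 to 3.42 in the other knockout arrays. A shift of dim signals between arrays was not tested.

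Strong increases tended to be smaller in the knockout. Of 548 genes whose mean response over both genotypes was at least 1, the change was smaller in the knockout in 486 and larger in 62, and the medians were 1.40 in the knockout and 1.66 in the wild-type. The injured arrays taken singly against their sham-operated mean had medians of 1.62, 1.35 and 1.34 in the knockout and of 1.70, 1.54 and 1.82 in the wild-type, so that the arrays of the genotypes overlapped. Of 838 genes with a mean response of −0.5 or lower, 394 fell further in the knockout and 444 in the wild-type, with medians of −0.60 and −0.62. Arg1 rose by 2.96 in the knockout and 4.41 in the wild-type (difference −1.45, limma adjusted p = 0.853), Hmox1 by 4.20 and 5.51 (adjusted p = 0.873) and Timp1 by 4.28 and 5.22 (adjusted p = 0.853).

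**Figure D5:**
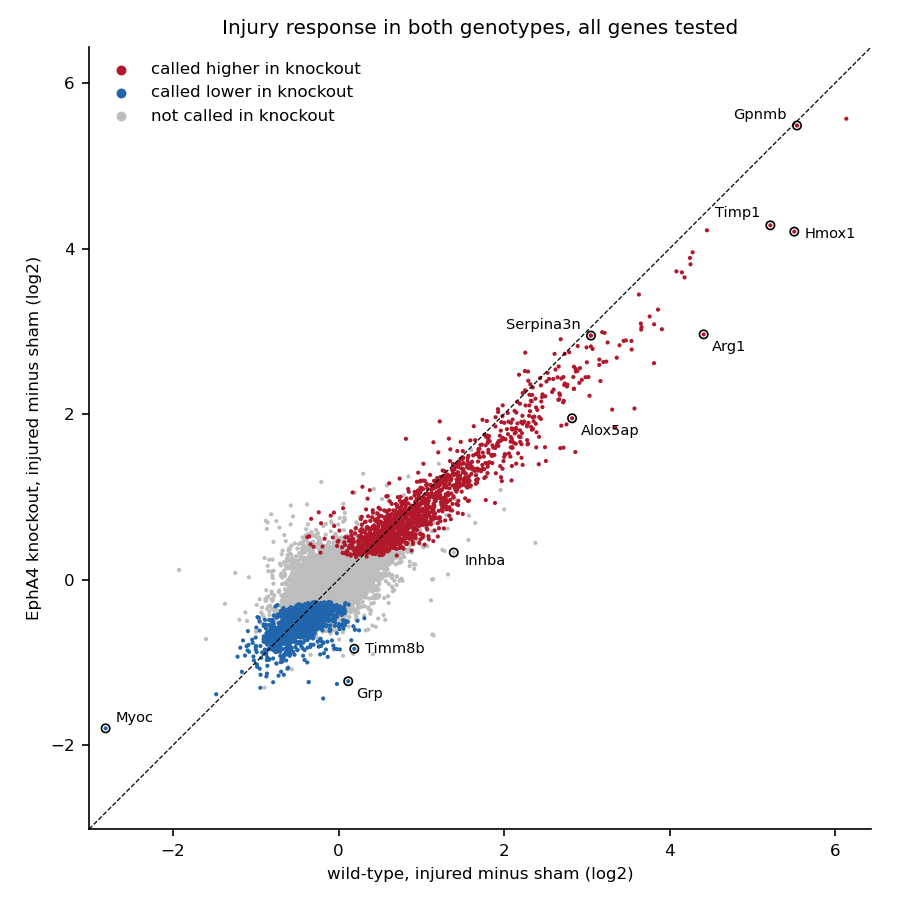
Change after injury in the wild-type cord (log2, x axis) against the change in the EphA4 knockout cord (log2, y axis), 1 point per gene, with a dashed line of equal change and 10 genes circled. Arg1 (2.96 in the knockout, 4.41 in the wild-type), Hmox1 (4.20 and 5.51) and Grp (−1.23 and 0.12) lie below the line.

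The dorsal horn peptides lay lower in the response of the knockout, although no single peptide passed for the difference. Their median change was −0.65 in the knockout and −0.02 in the wild-type, and 6 of the 13 had an unadjusted p under 0.05 for the difference, beside 882 of all 15830 genes. Grp fell by 1.23 in the knockout and changed by 0.12 in the wild-type, where it did not pass (difference with limma at an adjusted p = 0.821). The differences of Npy (−0.86), Tac1 (−0.80), Pnoc (−0.63), Nts (−0.47) and Sst (−0.40) had the same sign and did not pass either. The mean level of the list was 7.15 to 7.47 in the sham-operated and 6.60 to 6.94 in the injured knockout arrays, against 6.87 to 7.08 and 6.81 to 7.08 in the sham-operated and injured wild-type arrays, so that the sham-operated knockout cords were also the highest of the 4 groups. Timm8b, a chaperone of mitochondrial import, was 9.69, 9.60 and 9.61 in the sham-operated and 8.66, 8.99 and 8.74 in the injured knockout cords, a fall of 0.84, while its change in the wild-type was 0.19. Its difference of −1.03 had the smallest p of all genes and did not pass (limma adjusted p = 0.111).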

How the data were processed

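The members and gene lists were chosen with earlier results of these data known. RNA from each cord was labelled with the Affymetrix WT kit and hybridised to 1 Mouse Exon 1.0 ST array. The authors imported the arrays into Partek Genomics Suite with RMA, and the processing notes name mm9. The deposited values are log2 intensities of single exon probesets, not yet summarised by gene, and how precise a value is depends on the number of arrays. The sources differ on the side of the tissue, the amount of RNA and the range of ages.

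Of 194262 probesets, 179614 carry the name of 1 gene only. Averaging them gave 15830 gene levels, 809 of them from 1 probeset. The 1331 probesets with several genes and the 13317 with none were left out. Symbols were matched to RefSeq GRCm38.p6, 13745 directly and 2046 through synonyms. All 4 groups were fitted with limma 3.58.1 (R 4.3.3, data.table version 1.17.8, statmod 1.5.0), and the injury effect in EphA4 knockout, in wild-type and their difference were taken as contrasts. Calls needed an adjusted p (Benjamini-Hochberg) under 0.05 and 1.2-fold or more. The thresholds of the study are 1.2-fold with p under 0.01 before adjustment. The steps were tested on simulated data.

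The genes named are the 10 largest increases and decreases among genes called with at least 3 probesets and no overlap, up to 4 members of each list by p, Epha4 and the genes of the study, the 5 genes in each direction with the smallest p for the difference of the responses, and the Eph, ephrin and effector lists. The other dorsal horn peptides and the sex-linked genes were chosen after their values were seen. Alternatives were the 6 knockout arrays alone, quantile normalization, centring, the median of probesets, filters on dim genes and probesets, extraction batch, replicate number, array weights, the methods' t-test and leaving out each array. Protein sequences and exon usage were not analysed here.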

Additional observations from a re-analysis of the deposited data

Results flagged for a closer look

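The fitted difference between the injury responses, knockout minus wild-type, put 14 named genes on this list at the unadjusted thresholds of the study. None of them passed with limma at an adjusted p under 0.05. Some genes were named because they had the smallest p for this same difference in each direction. Their place on this list was thus set by that choice, and the count of 14 is no independent evidence. The response of the knockout was the smaller or lower one for Arg1 (difference −1.45), Grp (−1.34), Inhba (−1.06), Timm8b (−1.03), Alox5ap (−0.87), Sla (−0.74), Junb (−0.72), Fos (−0.68) and Gadd45b (−0.68). Inhba, a subunit of activin, changed by 0.33 in the knockout, where it did not pass, and by 1.39 in the wild-type. Alox5ap, the partner of the leukotriene enzyme, rose by 1.95 in the knockout. Junb, an immediate early gene, changed by 0.18 in the knockout and did not pass. The response of the knockout lay above that of the wild-type for Igfl3 (0.86), Zfp595 (0.59), Creb5 (0.58), Cbx7 (0.51) and Hoxd1 (0.47).

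Probesets that name no gene were outside the comparison of genes. Of 13317, 89 passed in the knockout, 72 higher and 17 lower, with changes from −1.98 to 4.74.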

How the results depend on the processing

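No named gene that was called turned its direction. Of all 3242 genes called, 4 changed sign with the median of probesets, where 1811 kept call and direction, and none did under the other settings run. The count of 3242 genes was 1970 with the median of probesets, 1103 with the methods' t-test after adjustment, 1827 with that test at the thresholds of the study, and 503 at a fold change of at least 2. The 1421 increases were 593, 844 and 480 under the last 3 settings. The 1821 decreases were 510, 983 and 23 there, 900 with the median of probesets, 1196 with the 6 knockout arrays alone and 1213 with extraction batch as a fixed term, which leaves out the arrays alone in their batch. Without 1 array each, the total ranged from 2191 (without injured replicate 1) to 3485 (without injured replicate 3), and the decreases from 1062 (without sham-operated replicate 2) to 2022 (without injured replicate 3), with 1071 without injured replicate 1 and 1194 without sham-operated replicate 1. The 503 genes of at least 2-fold were 330 with the methods' t-test. For the difference of the responses, 0 genes became 1 with array weights and 0 to 1 without 1 array, and the 167 at the thresholds of the study became 287 with extraction batch, 321 with array weights and 116 to 340 without 1 array (340 without injured replicate 3). In the wild-type 3809 became 2481 with the median of probesets and 648 at 2-fold. Centring each array on its median moved the median of all genes to −0.09 and the calls to 1301 higher and 2396 lower. Same-numbered replicates did not deviate together (correlations −0.0576, −0.219 and −0.303), and the fit with a replicate block gave 3036 genes. Of 226 named genes called, 174 kept direction and call under every setting except the methods' t-test and the 2-fold threshold. The causes were not tested. With 3 mice per group, sex, age and batch are only partly balanced. Background signals were not used here, so that it is not known which dim genes lie above background.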
